A study of Mus musculus with 6 samples.

Results

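Ror1 and 9 further genes of Wnt signalling were followed in cultured 4T1 cells with and without corticosterone. The 10 genes were taken by symbol from a table of 28154 genes: the ligands Wnt5a and Wnt7b, the receptors Ror1, Ror2 and Fzd7, the R-spondin receptor Lgr4, the secreted proteins Sfrp1 and Dkk3, and the intracellular regulators Nkd2 and Axin2. All 10 had 1 row each. 4T1 cells come from a mouse mammary carcinoma and form metastasising tumours in mice of the same strain. Corticosterone is the stress-released glucocorticoid of mice. RNA sequencing covered 6 libraries, 3 of cells labelled control and 3 of cells labelled corticosterone-treated, all of the same line. No vehicle is named for the controls, and dose and duration are not stated in the sources used here. No label says that replicates were separate cultures. The p-values then cover only the spread among these libraries, which may be technical.

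Wnt proteins are secreted lipid-modified ligands. In the canonical branch they bind a Frizzled receptor with LRP5 or LRP6, which stabilises beta-catenin and switches on TCF/LEF target genes, and Axin2 is the most widely used of those targets. In the non-canonical branch, ligands such as WNT5A act through ROR1 and ROR2, receptor-like kinases with a Frizzled-type ligand-binding domain, on cell polarity and movement. ROR1 is scarce in most adult tissues and is found in many carcinomas, and in the mammary gland canonical Wnt signals maintain basal stem-like cells.

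The promoter windows of Ror1 and Ror2 are shown because these paralogous receptors had fold changes of opposite sign, one past the test and one not. RefSeq windows (build GRCm38.p6, 250 bases before to 50 after the annotated start) were found for 6 of the 10 genes: Fzd7, Lgr4, Ror1, Axin2, Ror2 and Nkd2. Capitals mark CG dinucleotides, and both windows are written 5′ to 3′ on the gene's own strand. That of Ror1 lies at chr4:100095541-100095840 on the plus strand, and that of Ror2 at chr13:53286075-53286374 on the minus strand.
Ror1: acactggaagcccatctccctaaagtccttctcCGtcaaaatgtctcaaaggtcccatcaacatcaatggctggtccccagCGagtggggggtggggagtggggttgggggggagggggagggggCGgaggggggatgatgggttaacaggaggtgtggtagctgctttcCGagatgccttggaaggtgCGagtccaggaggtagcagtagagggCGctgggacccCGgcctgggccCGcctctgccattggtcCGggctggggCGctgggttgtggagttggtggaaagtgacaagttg
Ror2: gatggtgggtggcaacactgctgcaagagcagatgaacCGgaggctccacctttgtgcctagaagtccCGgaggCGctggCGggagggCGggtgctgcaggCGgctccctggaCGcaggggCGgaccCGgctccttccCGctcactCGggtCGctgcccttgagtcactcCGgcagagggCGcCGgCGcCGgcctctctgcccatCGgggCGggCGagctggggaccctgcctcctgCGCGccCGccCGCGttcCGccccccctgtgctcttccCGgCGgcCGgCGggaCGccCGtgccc
The Ror1 window held 10 CG dinucleotides and was 62.3% G and C, against 32 and 74.7% in the Ror2 window. The medians over all 32851 windows were 7 and 52.7%. Neither window held the glucocorticoid receptor hexamer AGAACA on either strand, which 19.0% of all windows held, nor the TCF/LEF core ATCAAAG, which 3.73% held. The full receptor palindrome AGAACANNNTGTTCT, which contains the hexamer on both strands, was in 3 of all windows and in none of the 6. Among the 6, only the Axin2 window held one of these motifs, the hexamer at positions -152 to -147 from the start. These are letters found in a window, and they show neither binding nor its absence.

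The libraries held 62175495 to 66249288 counts, and 17283 genes had enough counts to be tested. Of these 487 (2.82%) passed an adjusted p of 0.05 between the groups in edgeR's quasi-likelihood test, 1.35% higher and 1.46% lower with corticosterone. The glucocorticoid targets Tsc22d3 and Per1 had log2 fold changes of 1.55 and 1.75. Epithelial markers summed to 4619 to 4955 CPM (counts scaled to library depth) in controls and 4274 to 5119 CPM with corticosterone, with 0 of 9 called. Leukocyte markers summed to 51.5 to 53.2 and 45.8 to 55.2 CPM, and fibroblast markers to 62.5 to 80.4 and 75.2 to 79.2 CPM. Endothelial markers were 1.35 to 1.85 CPM in controls and 0.719 to 1.03 CPM with corticosterone, and the adipocyte marker Adipoq reached at most 0.107 CPM. The part of these cell types in the results below was not tested, and no listed marker with a row was at 0 in all 6 libraries. Among treated libraries, corticosterone replicate 2 was unlike the others. Its counts differed from theirs by a chi-square per degree of freedom of 45.7 and 70.1, against 8.996 to 15.7 for the other pairs within a group. Values without it are therefore given beside each tested member and each named gene whose call it changes. Leaving it out raised the number of called genes to 3670, or 20.5% of those tested. Removing the most divergent library of a group narrows the spread that the test sees. A pass without it is therefore no added support for a gene.

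Of the 10 genes, Ror1 rose with corticosterone and Sfrp1 fell. Ror1 went up 2.42-fold (95% confidence interval 1.75 to 3.34) and Sfrp1 went to 0.703 of its control level (0.597 to 0.829). Of the other 8, 7 did not pass and Axin2 had too few counts to be tested. The 2 calls among 9 tested genes stand against 2.82% of all tested genes. The genes were chosen with earlier results of these data known, so this count is no measure of enrichment. In 5 of the 9, Ror1, Nkd2, Ror2, Wnt7b and Sfrp1, the 3 treated libraries did not overlap the 3 controls, which also held for 22.2% of all tested genes.

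**Figure D1:**
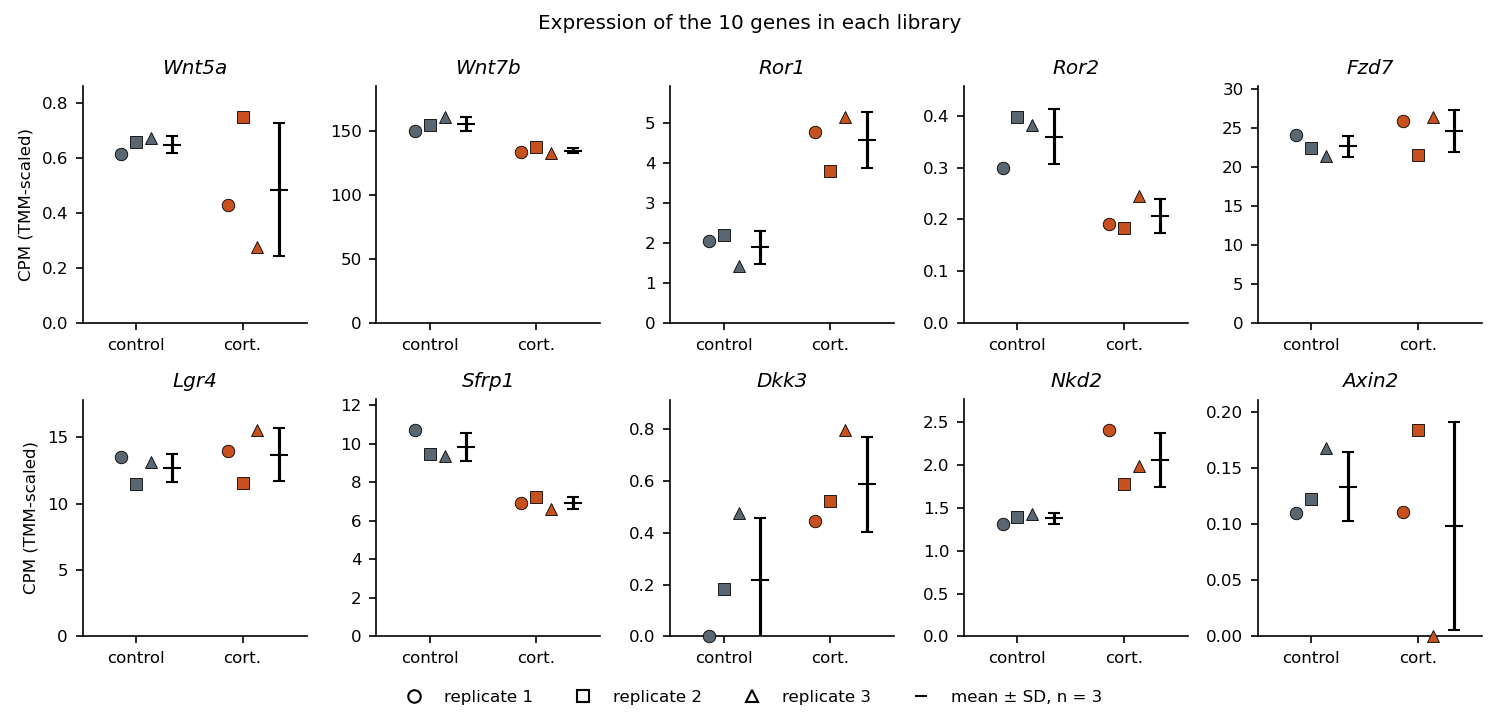
Each panel plots the CPM of 1 gene (linear axis from 0) in the 3 control and 3 corticosterone libraries, with marker shape for the replicate and the mean ± SD (n = 3) beside them; the SD bar of Dkk3 controls is cut at 0. Ror1 and Nkd2 lie higher in every treated library, Wnt7b, Ror2 and Sfrp1 lie lower in every treated library, and the other 5 overlap.

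**Figure D2:**
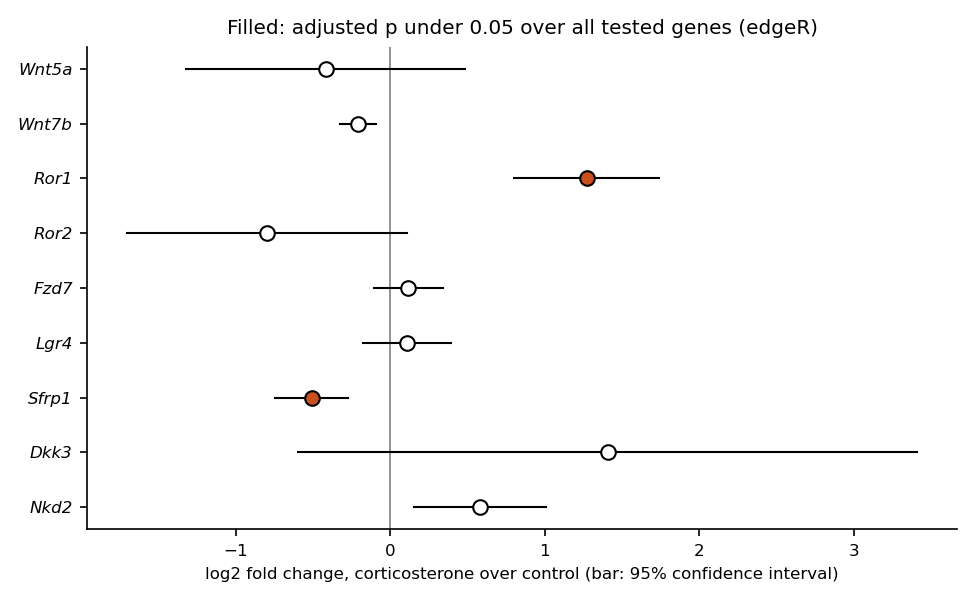
Log2 fold changes of corticosterone over control for the 9 tested genes, with 95% confidence intervals that are not adjusted for the number of genes. Ror1 at 1.27 and Sfrp1 at -0.51 passed the adjusted test, and the intervals of Wnt7b and Nkd2 also leave out 0 although they did not pass.

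Among the ligands, Wnt7b, a canonical Wnt of epithelia, had the highest ligand transcript level in controls, measured as FPKM. It had 150, 154 and 161 CPM in control replicates 1, 2 and 3 and 133, 137 and 133 CPM in corticosterone replicates 1, 2 and 3. All treated libraries lay below all controls, by a narrow margin. The log2 fold change was -0.21 (SE 0.050, 95% interval -0.32 to -0.091) and did not pass in edgeR (adjusted p = 0.0759). Without corticosterone replicate 2 it was -0.22 and passed in edgeR (adjusted p = 0.00946), and DESeq2 also called it with all libraries (adjusted p = 0.0182). The uncharacterised gene AU022754 overlaps Wnt7b on the opposite strand. It had 24 to 28 counts in controls and 46 to 49 with corticosterone, a difference that did not pass (edgeR adjusted p = 0.159). Its part in the counts of Wnt7b was not tested. Whether counting used strand is not stated.

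Wnt5a, the classical ligand of ROR1 and ROR2, was close to the limit of detection. It had 39, 43 and 44 counts in control replicates 1, 2 and 3, and 27, 49 and 18 counts in corticosterone replicates 1, 2 and 3. The treated libraries spread on both sides of the tight controls, with corticosterone replicate 2 above all of them. Its log2 fold change of -0.42 had an interval from -1.32 to 0.49 (edgeR adjusted p = 0.641), and it was -0.88 without corticosterone replicate 2 (edgeR adjusted p = 0.158). At this depth neither a 2-fold fall nor a small rise of Wnt5a could be told from no change. The gene Gm2670 overlaps Wnt5a on the opposite strand. It had 8 counts in corticosterone replicate 2 and 0 in every other library. Its part in the counts of Wnt5a was not tested.

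Ror1, the receptor-like kinase, had 130, 144 and 93 counts in control replicates 1, 2 and 3. In corticosterone replicates 1, 2 and 3 it had 300, 248 and 337 counts. Every treated library was above every control, and the lowest treated one was corticosterone replicate 2. In CPM the mean was 1.89 ± 0.413 in controls and 4.58 ± 0.698 in treated cells (SD, n = 3), so the log2 fold change was 1.27 (SE 0.205; edgeR adjusted p = 0.0172). In FPKM, which also divides by transcript length, the level went from 0.289 ± 0.0638 to 0.705 ± 0.118. Without corticosterone replicate 2 the log2 fold change was 1.39 (edgeR adjusted p = 0.00273). The size held between 1.10 and 1.40 whichever library was left out, but the call was lost without control replicate 1 (edgeR adjusted p = 0.0687), 2 (0.0688) or 3 (0.0545) and without corticosterone replicate 1 (0.0928) or 3 (0.0571). In these cells more transcript per cell and more cells with the transcript cannot be told apart. Ror1 spans chromosome 4, 100095791 to 100444765 (GRCm38). It overlaps the predicted genes Gm12706 on the opposite strand and Gm12701 on its own, which had no row of counts.

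Ror2, the paralogue of Ror1, had 19, 26 and 25 counts in control replicates 1, 2 and 3 and 12, 12 and 16 counts in corticosterone replicates 1, 2 and 3. All treated libraries were below all controls, at counts where a few reads decide the ratio. Its log2 fold change, -0.80 with an interval from -1.70 to 0.11, did not pass (edgeR adjusted p = 0.354), and it was -0.72 without corticosterone replicate 2 (edgeR adjusted p = 0.386). The FPKM ratio of Ror1 to Ror2 stood at 5.17, 4.09 and 2.76 in the controls, by replicate number, and at 19.3, 15.3 and 15.7 in the treated libraries, without overlap. That separation follows from Ror1 lying higher and Ror2 lower in every treated library, so it is no further result. An exact two-sided permutation of the log ratio therefore had to give p = 0.1, the lowest that 3 against 3 can reach. Ror1 made up 0.265 ± 0.0542% of the summed FPKM of 16 Wnt receptors in controls and 0.655 ± 0.0745% with corticosterone (SD, n = 3). It thus remained a minor receptor transcript in both groups.

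Fzd7, a Frizzled receptor of mammary basal cells, had 24.1, 22.4 and 21.4 CPM in control replicates 1, 2 and 3. It had 25.9, 21.5 and 26.4 CPM in corticosterone replicates 1, 2 and 3, so that 1 treated library fell among the controls. The log2 fold change was 0.12 (95% interval -0.11 to 0.34, edgeR adjusted p = 0.595) and 0.21 without corticosterone replicate 2 (edgeR adjusted p = 0.0983). Lgr4, which binds R-spondins and so protects Frizzled receptors from removal, had 13.5, 11.5 and 13.1 CPM in control replicates 1, 2 and 3. It had 13.95, 11.6 and 15.5 CPM in corticosterone replicates 1, 2 and 3. Its groups overlapped, with a log2 fold change of 0.11 (95% interval -0.18 to 0.39, edgeR adjusted p = 0.714) and of 0.21 without corticosterone replicate 2 (edgeR adjusted p = 0.194). The intervals of both genes leave out 2-fold changes in either direction.

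Sfrp1, a secreted Frizzled-related protein that binds Wnts outside the cell, had 10.7, 9.45 and 9.36 CPM in control replicates 1, 2 and 3. In corticosterone replicates 1, 2 and 3 it had 6.92, 7.22 and 6.61 CPM. The treated libraries lay close together and below all controls. The log2 fold change was -0.51 (SE 0.103; edgeR adjusted p = 0.0421), and -0.54 without corticosterone replicate 2 (edgeR adjusted p = 0.0123). FPKM went from 1.99 ± 0.156 to 1.40 ± 0.0435 (SD, n = 3). The call was lost without control replicate 1 (edgeR adjusted p = 0.158), 2 (0.159) or 3 (0.118) and without corticosterone replicate 1 (0.176) or 3 (0.135), with the log2 fold change between -0.54 and -0.44 throughout. No annotated gene overlaps Sfrp1 on either strand (chromosome 8, 23411502 to 23449632).

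Dkk3, a divergent member of the Dickkopf family of secreted proteins, had 0, 12 and 31 counts in control replicates 1, 2 and 3. It had 28, 34 and 52 counts in corticosterone replicates 1, 2 and 3. The controls ranged from no count to the level of the treated libraries, and the groups overlapped. Its log2 fold change of 1.41 was larger than that of Ror1 but had an interval from -0.60 to 3.41 and did not pass (edgeR adjusted p = 0.462). Without corticosterone replicate 2 it was 1.49 (edgeR adjusted p = 0.328).

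Nkd2, which binds Dishevelled and dampens Wnt signals inside the cell, had 83, 91 and 93 counts in control replicates 1, 2 and 3 and 151, 116 and 130 counts in corticosterone replicates 1, 2 and 3. All treated libraries were above all controls. The log2 fold change was 0.58 (SE 0.187, 95% interval 0.15 to 1.01) and did not pass (edgeR adjusted p = 0.166). Without corticosterone replicate 2 it was 0.67 and passed (edgeR adjusted p = 0.0454). The opposite-strand gene Gm8062 had 0 to 3 counts in controls and 0 to 8 with corticosterone.

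Axin2, a scaffold of the beta-catenin destruction complex and a canonical feedback target, was barely detected. It had 7, 8 and 11 counts in control replicates 1, 2 and 3 and 7, 12 and 0 in corticosterone replicates 1, 2 and 3. This was below the filter on low counts, and fitted without that filter its log2 fold change was -0.44 with an interval from -3.05 to 2.18 (edgeR adjusted p = 0.898). Changes of Axin2 within that interval could not be told from no change at this depth.

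On the scale of FPKM, control means ran from Wnt7b at 28.0 over Fzd7 at 4.42, Sfrp1 at 1.99, Lgr4 at 1.91, Ror1 at 0.289 and Nkd2 at 0.249 to Ror2 at 0.0740, Wnt5a at 0.0723, Dkk3 at 0.0564 and Axin2 at 0.0203. The neighbours Sfrp1 and Lgr4, and Ror1 and Nkd2, overlapped in controls, as did each pair of neighbours from Ror2 down to Axin2. With corticosterone the means were 24.3 for Wnt7b, 4.82 for Fzd7, 2.07 for Lgr4, 1.40 for Sfrp1, 0.705 for Ror1, 0.376 for Nkd2 and 0.154 for Dkk3. Wnt5a at 0.0536, Ror2 at 0.0423 and Axin2 at 0.0150 followed. In treated cells Lgr4 and Sfrp1 no longer overlapped, nor did Ror1 and Nkd2, while Wnt5a and Ror2 did. The level of Ror1 in treated cells was thus still below that of Fzd7, Lgr4 and Sfrp1.

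The most similar patterns to that of Ror1 over the 6 libraries, among 7439 tested genes with a mean of at least 5 FPKM, were those of Ranbp10, Stx7 and Wdr75. Their Pearson correlations of log2 CPM with Ror1 were 0.997, 0.996 and 0.995, over points that share the difference between groups and the library effects. Their own log2 fold changes were 0.15, 0.15 and 0.21, none of which passed (edgeR adjusted p = 0.212, 0.224 and 0.11).

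The wider pathway was read from a list of 118 Wnt genes, of which 104 had a row and 88 were tested. Of the 88, 2 were called higher (Ror1 and Myc) and 2 lower (Sfrp1 and Apcdd1), and 84 did not pass, beside 2.82% called over all tested genes. The median log2 fold change was -0.0040, against 9.6e-05 over all 17283 tested genes. The list holds all 10 genes above, and without them 1 of 79 was higher and 1 lower. DESeq2 called 12 of the 75 list genes that it gave an adjusted p, beside 8.1% of all genes it tested. Without corticosterone replicate 2 edgeR called 25 of 89, beside 20.5% of all genes. The 12 include Ror1, Sfrp1 and Wnt7b, and the 25 include these and Nkd2, all among the 10 genes above. The list was chosen with earlier results of these data known, so neither count is a measure of enrichment.

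**Figure D3:**
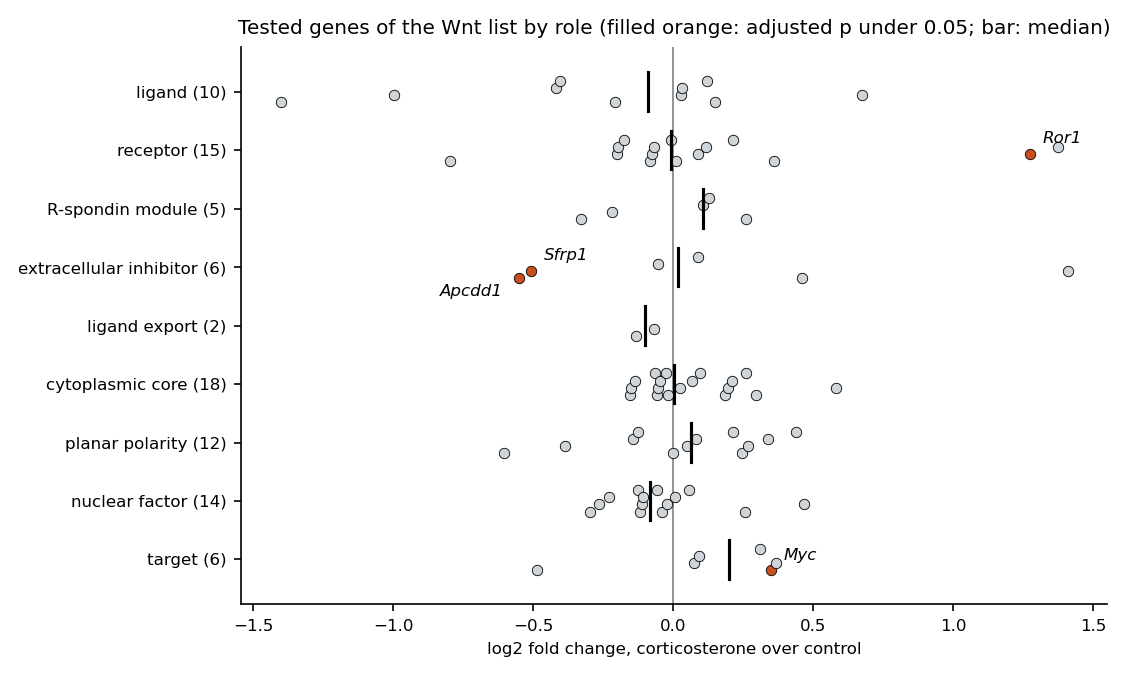
Log2 fold changes of the 88 tested Wnt genes, grouped by role, with the number tested in parentheses, 1 point a gene and a bar at each group's median. The 4 orange points passed, Ror1 and Myc to the right and Sfrp1 and Apcdd1 to the left, and the medians of the roles lie between -0.10 and 0.20.

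Of 10 tested ligands edgeR called 0. An unadjusted p under 0.05 was found for 4 of them and for 17% of all tested genes. DESeq2 called Wnt7b and Wnt10b lower, beside 8.1% of all genes it tested called in either direction. Wnt7b and Wnt7a together made up 83.6 ± 0.485% of the summed ligand FPKM of controls and 84.3 ± 1.74% of treated cells (SD, n = 3, with p = 0.5 by exact two-sided permutation, which cannot go below 0.1). Wnt7a, the close relative of Wnt7b, had 84.4, 83.1 and 89.5 CPM in control replicates 1, 2 and 3 and 90.4, 98.4 and 90.5 CPM in corticosterone replicates 1, 2 and 3. It lay higher in all treated libraries without passing (log2 fold change 0.12, edgeR adjusted p = 0.355). The share of Wnt7b in ligand FPKM was 44.5%, 45.9% and 44.9% in control replicates 1, 2 and 3, and 41.8%, 39.0% and 41.5% in corticosterone replicates 1, 2 and 3. By FPKM, Wnt7b exceeded Wnt7a in each control library, and with corticosterone Wnt7a, at 43.3% to 43.7%, exceeded Wnt7b in each. Exact two-sided permutation gave p = 0.1 for each share, the lowest it can give. The shares are no further result, since Wnt7b lay lower and Wnt7a higher in every treated library. Both shares divide by the same summed ligand FPKM, so they are not separate tests. The change of order depends on the division by transcript length. By CPM, Wnt7b stayed above Wnt7a in every library, at 133 to 137 against 90.4 to 98.4 with corticosterone. Wnt10b, chosen after its values were seen, had 254, 231 and 180 counts in control replicates 1, 2 and 3. It had 144, 104 and 83 counts in corticosterone replicates 1, 2 and 3, for a log2 fold change of -0.998, which missed the threshold (edgeR adjusted p = 0.0788, and 0.0389 without corticosterone replicate 2).

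**Figure D4:**
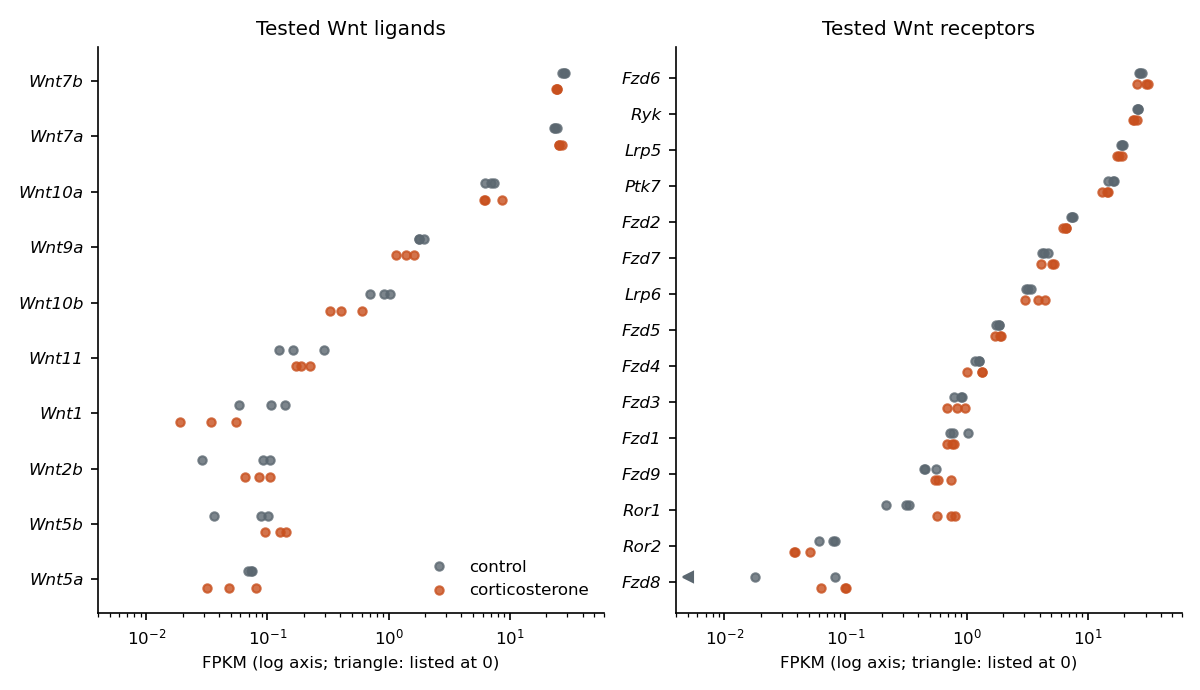
FPKM of the 10 tested ligands and 15 tested receptors on a log axis, 1 point a library, grey for control and orange for corticosterone, ordered by the control mean. Wnt7b and Wnt7a lead the ligands, with control means of 28.0 and 23.9 FPKM, and Ror1 moves from 0.289 to 0.705 FPKM at the lower end of the receptors.

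Of 15 tested receptors Ror1 was the only one called in edgeR with all libraries, beside 2.82% of all tested genes. In the same test 3 of them had an unadjusted p under 0.05, beside 17% of all tested genes. The most abundant receptor transcripts were Fzd6, a Frizzled of epithelial polarity, at 27.2 ± 0.803 and 29.1 ± 3.34 FPKM in control and treated cells, and Ryk, an atypical kinase-like receptor, at 25.8 ± 0.365 and 24.4 ± 0.900 FPKM (SD, n = 3). Neither passed (edgeR adjusted p = 0.603 and 0.45), and Fzd6 passed without corticosterone replicate 2 with a log2 fold change of 0.17 (edgeR adjusted p = 0.0241). Summed receptor FPKM was 109 ± 2.51 for controls and 107 ± 6.10 for treated cells (SD, n = 3, p = 0.8 by exact two-sided permutation). The R-spondin module had 0 of 5 tested genes past the edgeR threshold, and 1 with an unadjusted p under 0.05. The R-spondin receptor Lgr6 had 35.0 ± 3.31 CPM in controls and 27.9 ± 0.921 CPM in treated cells (SD, n = 3), and its log2 fold change of -0.33 passed in DESeq2 (adjusted p = 0.0166) but not in edgeR (adjusted p = 0.0912, and 0.0202 without corticosterone replicate 2). Znrf3, a ubiquitin ligase that removes Frizzled receptors, had a log2 fold change of 0.13 (edgeR adjusted p = 0.563).

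Of 6 tested extracellular inhibitors, Sfrp1 and Apcdd1 fell, beside 1.46% of all tested genes called lower. These were also the 2 with an unadjusted p under 0.05 in edgeR, which 17% of all tested genes reached. Sfrp1 was among the genes chosen with earlier results of these data known. Apcdd1, a membrane-bound inhibitor of Wnt signals, had 18.7, 14.3 and 15.3 CPM in control replicates 1, 2 and 3 and 10.4, 11.6 and 10.97 CPM in corticosterone replicates 1, 2 and 3, without overlap. Its log2 fold change was -0.55 (SE 0.115; edgeR adjusted p = 0.0468). That call was lost without control replicate 1 (edgeR adjusted p = 0.145), 2 (0.108) or 3 (0.133) and without corticosterone replicate 1 (0.215) or 3 (0.143), and also without a filter on low counts (0.121). It held without corticosterone replicate 2 (0.0115). Kremen1, a co-receptor of Dickkopf proteins and the most abundant of the 6, had a log2 fold change of 0.088 (edgeR adjusted p = 0.628).

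Of the 6 tested target genes 4 had an unadjusted p under 0.05 in edgeR, beside 17% of all tested genes. Myc alone rose past the adjusted threshold, beside 1.35% of all tested genes called higher. It is a growth-promoting transcription factor, which many signals besides Wnt control. It had 313, 324 and 324 CPM in control replicates 1, 2 and 3 and 403, 422 and 400 CPM in corticosterone replicates 1, 2 and 3, without overlap. The log2 fold change was 0.35 (SE 0.049; edgeR adjusted p = 0.0101). The call was lost without control replicate 1 (edgeR adjusted p = 0.0671), 2 (0.0909) or 3 (0.0658) and without corticosterone replicate 1 (0.0698). DESeq2, which called 8.1% of all genes it tested, also called Sox9 and Cd44 higher and Ccn4 lower, all chosen after their values were seen. In edgeR their log2 fold changes were 0.37, 0.31 and -0.49, and none passed with all libraries (adjusted p = 0.0728, 0.183 and 0.072). All of them passed in edgeR without corticosterone replicate 2, at 0.43, 0.42 and -0.39 (adjusted p = 0.0045, 0.00257 and 0.0248), and so did Myc at 0.32 (adjusted p = 0.000972). Ccnd1, the cyclin of G1 phase, was the most abundant target at 196 ± 6.42 and 207 ± 20.9 FPKM (SD, n = 3) and had a log2 fold change of 0.073 (edgeR adjusted p = 0.637).

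Within the cell, 0 of 18 tested genes of the cytoplasmic core, 0 of 12 of planar polarity, 0 of 14 nuclear factors and 0 of 2 ligand export genes passed in edgeR. Counted by an unadjusted p under 0.05 they were 5, 3, 3 and 0, and 17% of all tested genes reached it. DESeq2, which called 8.1% of all genes it tested, called 2 among them, the polarity cadherin Celsr1 and the corepressor Tle1. These were chosen after their values were seen, and had edgeR log2 fold changes of -0.61 and 0.26 (adjusted p = 0.0551 and 0.0904). Both passed in edgeR without corticosterone replicate 2 (adjusted p = 0.0217 and 0.0257). Ctnnb1, which encodes beta-catenin, was the most abundant of the core at 134 ± 5.51 and 121 ± 13.2 FPKM (SD, n = 3), with a log2 fold change of -0.15 (95% interval -0.32 to 0.015, edgeR adjusted p = 0.336). The log2 fold changes of the other leading genes were -0.068 for the Wnt carrier Wls, -0.0007 for the polarity scaffold Scrib and -0.13 for the beta-catenin co-activator Pygo2 (edgeR adjusted p = 0.748, 0.998 and 0.298). The sign of the Scrib value changes with the scaling. Without corticosterone replicate 2, Wnt7a, Ryk, Znrf3, Kremen1, Ctnnb1, Wls, Scrib, Pygo2 and Ccnd1 still did not pass (edgeR adjusted p = 0.0719 to 0.789), and the sign of Wls changed, to 0.026.

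The calls of Ror1 and Sfrp1 were then set beside the other settings of the fit. Scaling by median ratios left both calls (edgeR adjusted p = 0.0175 and 0.0426), and DESeq2 called both with lower adjusted p (9.4e-06 and 0.0038). Without a filter on low counts, neither passed in edgeR (adjusted p = 0.0613 and 0.0839). With the replicate number as a block, neither passed either (edgeR adjusted p = 0.0527 and 0.115). Limma did not call Sfrp1 on log2(FPKM + 1) or log2(FPKM + 0.1) (adjusted p = 0.0538 and 0.055), and Ror1 fell below its minimum of 1 FPKM. The sign of Ror1 was positive in every setting that gave it a value, and that of Sfrp1 was negative in every setting.

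**Figure D5:**
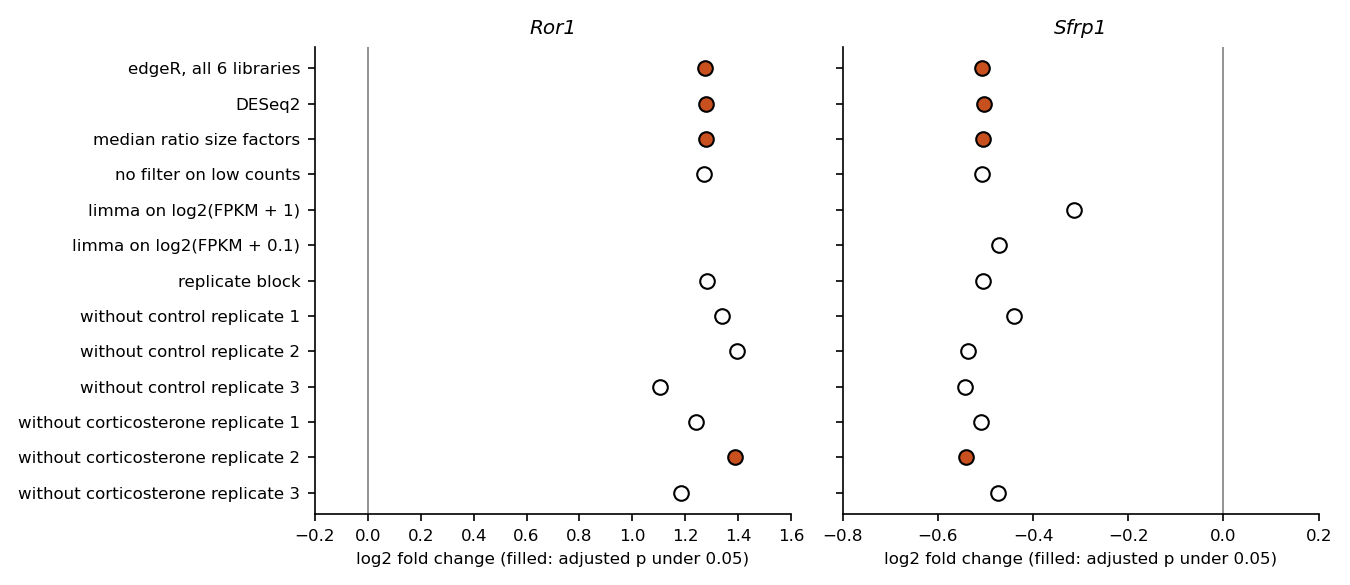
Log2 fold changes of Ror1 and Sfrp1 under each setting of the fit, 1 row a setting, filled where the adjusted p was under 0.05; Ror1 has no value under limma. Ror1 stays between 1.10 and 1.40 and Sfrp1 between -0.54 and -0.31, while 4 of the settings, all 6 libraries included, are filled for each gene.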

How the data were processed

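The 6 libraries were grouped by the treatment field of the labels and numbered from their titles. The deposited table gives whole numbers per gene and library that the file headers name counts. They were taken as not normalized by the authors, which the headers do not state. It also gives FPKM values by the authors, per the file headers (fragments per kilobase of transcript, scaled to depth). The sources used here do not give aligner, counter, read layout or strandedness. The submitters' processing notes name a human genome build, but all 28154 identifiers are mouse (ENSMUSG), and 90.4% of the 28086 found in GENCODE M21 (mouse build GRCm38) have the same coordinates there. Of the value columns 0 were left unmapped.

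Counts were filtered with filterByExpr (minimum count 10, minimum total 15), scaled by TMM (trimmed mean of M values) and fitted over all 17283 passing genes with edgeR 4.0.16 (R 4.3.3), glmQLFit and glmQLFTest, group as the only factor, Benjamini-Hochberg adjustment over all tested genes and a threshold of 0.05. CPM are counts scaled to the TMM-adjusted library size. SE is the log2 fold change over the root of F. In libraries of 62.2 to 66.2 M counts, 3 counts are worth 0.0459 to 0.0477 CPM. On simulated data of 17283 genes with 200 changed, this fit found 44% of genes changed 1.5-fold, 71% of those changed 2-fold, and 9 unchanged genes. The simulated libraries of a group were drawn alike, with no divergent library such as corticosterone replicate 2. The changed genes were drawn from all levels, so these shares need not hold for genes with few counts.

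Alternatives were DESeq2 1.42.0, median ratio scaling, no filter, limma 3.58.1 with an intensity trend on log2(FPKM + 1) and log2(FPKM + 0.1) (at least 1 FPKM in 3 libraries), the replicate number as a block, and each library left out. The genes and lists were chosen with earlier results of these data known. Named from the Wnt list were genes past the threshold and the most abundant of each role by mean FPKM. The second of the ligands, receptors and R-spondin module was also named. The 3 genes most correlated with Ror1 came from the 7439 tested genes with a mean of at least 5 FPKM, not from the list. Wnt10b, Celsr1, Tle1, Sox9, Cd44 and Ccn4 were added after their values were seen. Genes on an opposite strand overlap Ror1, Wnt5a, Wnt7b, Axin2 and Nkd2, and also Wls, Fzd6, Kremen1, Ctnnb1, Ccnd1, Tle1 and Cd44, so their counts are uncertain. Counts of replicates of a group differed by more than sampling noise in every pair (chi-square per degree of freedom of at least 8.996).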

Additional observations from a re-analysis of the deposited data

How the results depend on the processing

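Without a filter on low counts edgeR called 211 genes in all, 0 of the 10 genes and 1 of the Wnt list (Myc). With the replicate block it called 237, 0 and 0, and adjusted p was 0.0527 for Ror1, 0.115 for Sfrp1, 0.0543 for Myc and 0.119 for Apcdd1. Libraries of the same replicate number shared little deviation from their group means (correlations 0.011, 0.038 and -0.088), which does not exclude that they were paired. DESeq2 called 1131 genes (8.1% of those it tested), 3 of the 10 (Wnt7b added) and 12 of the list. It gave no adjusted p to Ror2, Wnt5a or Dkk3. Limma on log2(FPKM + 1) and on log2(FPKM + 0.1) called 0 of the 10, of which it could test 4, and 1 of the list each. With 1 library left out, 88 to 3670 genes, 0 to 4 of the 10 and 0 to 25 of the list were called. The highest of these, 3670 (20.5% of those tested), 4 and 25, came without corticosterone replicate 2, and 88 genes without control replicate 2. Without any library but corticosterone replicate 2, 0 of the 10 were called. Fewer libraries also lower the power of the test, while leaving out the most divergent library narrows the spread that it sees.

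Over the named genes none that passed changed sign in any setting. Scrib, at -0.0007, was 0.0031 with DESeq2, 0.0022 with median ratio scaling, 0.0039 with limma on log2(FPKM + 1), 0.0042 with limma on log2(FPKM + 0.1), and -0.045 to 0.023 with 1 library left out. Wls ranged from -0.14 to 0.026 with 1 library left out. Depth limits Ror2, Wnt5a, Dkk3 and Axin2, with at most 52 counts in any library. Ror1, Ror2, Wnt5a, Nkd2, Dkk3 and Axin2 had no value with limma, since they miss 1 FPKM in 3 libraries.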
